A study of Rattus norvegicus with 3 samples.

Results

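Interferon-stimulated genes, the genes that cells switch on when an interferon reaches its receptor, were followed through the cell classes of diabetic rat wounds. The group was set by name, as well-known interferon-stimulated genes that the count tables hold, and the rule uses no measured value. It has 39 members out of 32883 features. By role there are 21 antiviral effectors, 4 transcription factors, 3 sensors of viral RNA, 6 enzymes of ISG15, ubiquitin and ADP-ribose transfer, 3 interferon-inducible GTPases and 2 subunits of the immunoproteasome.

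The tissue was wound skin taken 7 days after a full-thickness defect of 15 mm was cut in male SD rats of 8 to 10 weeks, described as wild type. All rats in all 3 groups had been made diabetic with streptozotocin, a toxin of insulin-producing cells, at 65 mg/kg and at 7 to 9 weeks of age, and had blood glucose above 16.7 mM. Wounds of the CO hydrogel group received a gel of hyaluronic acid made to release carbon monoxide, those of the hydrogel group received hyaluronic acid hydrogel without it, and those of the untreated group received neither. Each group is 1 library of single cells, made with a droplet kit that counts the 3′ ends of transcripts with molecular identifiers (UMIs), and the labels do not give how many animals a library holds. No non-diabetic or unwounded skin was analysed here. With 1 library per group there is no replicate check, no test was made, and every interval below is a 95% interval for counting error only.

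Interferons come in families. Type I interferons, such as interferon beta, signal through Ifnar1 and Ifnar2 and activate a complex with STAT2 and IRF9 that binds the interferon-stimulated response element (ISRE). Type II interferon, interferon gamma, comes mainly from T cells and natural killer cells, signals through Ifngr1 and Ifngr2, and acts mainly through the gamma-activated site (GAS). Effectors such as Mx, Ifit and Oas proteins block viral replication and are classic type I genes, while Irf1, the guanylate-binding proteins and the immunoproteasome are strongly induced by interferon gamma, with much overlap between the families. In skin wounds plasmacytoid dendritic cells, macrophages, keratinocytes and T cells have all been described as interferon sources or responders.

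Both elements can be read in the start regions of the members, and a few are shown because the results below differ between genes such as Irf1 and Gbp2 and genes such as Ifit3 and Irf7. RefSeq promoter sequence of the GRCr8 assembly was matched for 29 of the 39 members. The 250 bases before each start were searched on both strands for the core of the ISRE, which is GAAA, any 2 bases and GAAA again, and for the GAS, TTCNNNGAA. The ISRE letters were found for 15 of 29 members (51.7%), against 3.29% of 27457 promoters, and the GAS letters for 8 of 29 (27.6%), against 7.52%. Both were found for 4 of 29 members (13.8%), against 0.441% of all promoters. In the windows below, written 5′ to 3′ on the gene's strand, capitals mark the matched letters. Where the match is on the other strand, the capitals show its reverse complement.
Ifit3, ISRE, chr1:241527272-241527301, plus strand: tttaagtctgTTTCAGTTTCtagtttccac
Irf7, ISRE, chr1:205800073-205800102, minus strand: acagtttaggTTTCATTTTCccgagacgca
Rsad2, ISRE, chr6:48788248-48788277, minus strand: ctggttcaacTTTCATTTTCagaaaacaga
Gbp2, ISRE, chr2:234005686-234005715, plus strand: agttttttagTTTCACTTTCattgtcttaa
Irf1, GAS, chr10:38417783-38417811, plus strand: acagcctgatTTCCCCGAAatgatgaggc
Irgm, both, chr10:33742599-33742627, minus strand: tcgtTTCAAGGAAtaGAAACTGAAAccga
Parp14, both, chr11:78408043-78408071, plus strand: gggtTTCCAGGAAatGAAAGTGAAAgaag
Irf1 held the GAS letters and no ISRE letters, whereas Gbp2 held the ISRE letters, so the letters did not separate genes in the way their levels did below. No match was found in the window of Cmpk2, Dtx3l, Herc6, Ifit1bl, Mx1, Oasl, Parp9, Psmb9, Stat2 or Trim25. A match is a run of letters, not a measured binding site.

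After filtering there were 12659 cells from the CO hydrogel library, 12069 from the hydrogel library and 10550 from the untreated library, with median depths of 6073, 5951 and 2643.5 UMIs per cell. The cells formed 27 clusters when the members and their pathway genes were left out of the clustering, and classes were named from marker genes as fibroblast-like, endothelial-like and so on. That suffix holds throughout and is dropped below for brevity. Some cell barcodes occurred in more than 1 library, 347 between the CO hydrogel and hydrogel libraries, 456 between the CO hydrogel and untreated libraries and 278 between the hydrogel and untreated libraries, and 61.15% to 68.42% of these pairs fell in the same cluster, against 3.169% to 5.039% of all pairs of cells. Such cells made up 4.526% of the CO hydrogel library, 3.273% of the hydrogel library and 4.777% of the untreated library, and 16.71% of the untreated endothelial cells. Leaving them out moved no count of members by more than 1 and left each of the 206 single-gene ratios past 2-fold on its side of that limit.

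A class's level of a gene is the gene's share of all UMIs of that class in that library, written in CPM, and ratios are given as log2 with the CO hydrogel over the hydrogel, the CO hydrogel over the untreated wound, or the hydrogel over the untreated wound. Since only 3′ ends are counted, the values are not divided by transcript length. A change in which cells make up a class and a change within its cells both move such a level, so the clusters inside a class are given where they differ. Ratios of members are read from at least 20 UMIs over both libraries, and the share of all such genes past 2-fold stands beside each count of members.

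Summed over the 39 members, neutrophils stood highest in all 3 libraries, at 9363 CPM with the CO hydrogel, 17640 CPM with the hydrogel and 7163 CPM untreated. Endothelial cells followed with 5513, 5312 and 3412 CPM in the CO hydrogel, hydrogel and untreated libraries. Macrophages and monocytes, which form a joint class, had 3057 CPM with the CO hydrogel, 3197 CPM with the hydrogel and 1620 CPM untreated. Mural cells, the pericytes and smooth muscle of vessels, had 2647, 2294 and 2054 CPM in that order of libraries, and fibroblasts had 2156, 1887 and 1520 CPM. T or NK cells had 2335 CPM with the CO hydrogel, 2586 CPM with the hydrogel and 2102 CPM untreated. Keratinocytes were the lowest class, with 624, 636 and 727 CPM in the CO hydrogel, hydrogel and untreated libraries, and the only class of these 7 that was highest in the untreated wound.

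The sum leaned on Ifi27, which codes for a small interferon-induced membrane protein and held 49.7%, 45.9% and 65.8% of the members' UMIs in CO hydrogel, hydrogel and untreated fibroblasts but 3.81%, 1.58% and 2.57% in neutrophils. Without Ifi27 the fibroblast sums were 1085 CPM with the CO hydrogel, 1022 CPM with the hydrogel and 519 CPM untreated, and the endothelial sums were 2893, 2812 and 1241 CPM. Of the 39 members, neutrophils held the highest level of 16 with the CO hydrogel, 25 with the hydrogel and 15 untreated, endothelial cells of 13, 7 and 5, and T or NK cells of 7, 4 and 13. Fibroblasts held the highest level of none in any library.

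**Figure D1:**
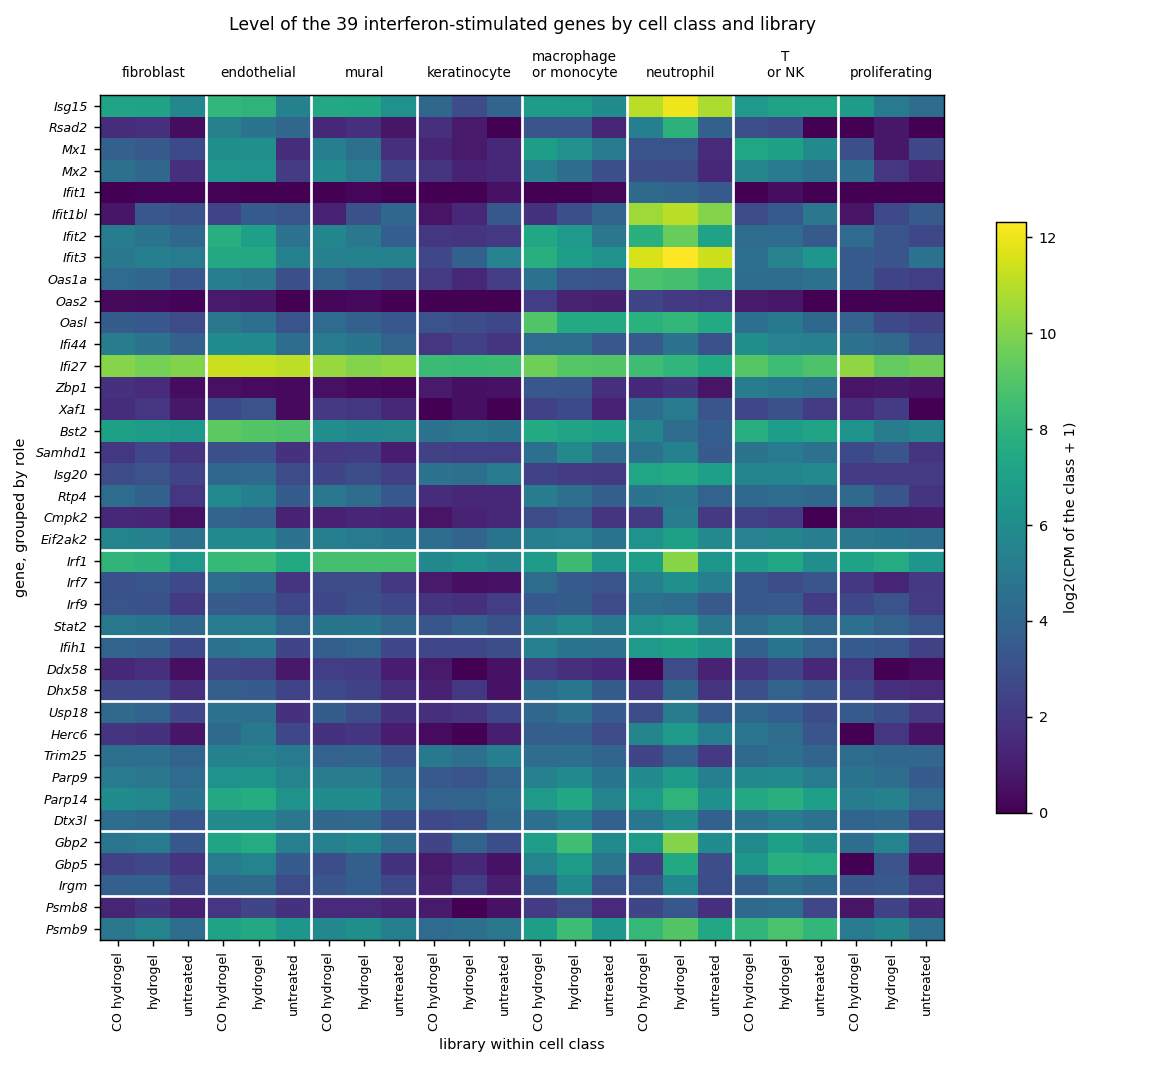
Level of each of the 39 members (rows, grouped by role) in each cell class and library (columns, CO hydrogel, hydrogel and untreated within each class), as log2(CPM + 1), brighter being higher. Neutrophils are brightest for Isg15, Ifit3 and Ifit1bl, Ifi27 is spread over the stromal and vascular classes, and the hydrogel column stands out in neutrophils for Irf1 and Gbp2.

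Of the classes compared, neutrophils gave the widest differences between the 2 gels. Irf1, the transcription factor that carries much of the interferon gamma response, had 121 CPM with the CO hydrogel, 1113 CPM with the hydrogel and 89.2 CPM untreated. It was thus high in the hydrogel library and low in the others, 9.20-fold lower under the CO hydrogel than under the hydrogel (log2 -3.20, interval -3.55 to -2.87) and 3.64 log2 units higher with the hydrogel than untreated (3.55 to 3.74). Gbp2, a GTPase that attacks the vacuoles of intracellular microbes, had 103 CPM with the CO hydrogel, 1069 CPM with the hydrogel and 62.4 CPM untreated. Its ratios were -3.37 (-3.76 to -3.02) for the CO hydrogel over the hydrogel and 4.10 (3.99 to 4.21) for the hydrogel over the untreated wound. The related Gbp5 had 2 UMIs with the CO hydrogel, 939 with the hydrogel and 77 untreated, or 3.27, 181 and 6.55 CPM, a log2 ratio of -5.79 (-8.84 to -3.93) for the CO hydrogel over the hydrogel. Irgm, a GTPase of the same defence, had 8.17 CPM with the CO hydrogel, 52.6 CPM with the hydrogel and 6.72 CPM untreated. For all 4 genes the hydrogel library lay far above the other 2.

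The neutrophils' most abundant members were effectors, and their pattern was flatter. Ifit3, an RNA-binding antiviral protein gene, had 3023 CPM with the CO hydrogel, 5139 CPM with the hydrogel and 2670 CPM untreated. Isg15, a ubiquitin-like protein gene, had 2114 CPM with the CO hydrogel, 4084 CPM with the hydrogel and 1769 CPM untreated. Their ratios for the CO hydrogel over the hydrogel were -0.77 (-0.83 to -0.70) and -0.95 (-1.03 to -0.87), both short of 2-fold. Ifit1bl had 1494 CPM with the CO hydrogel, 2103 CPM with the hydrogel and 1040 CPM untreated. Ifit1bl and Ifit1 are close relatives, so reads may have been divided between them, and Ifit1 itself had 11, 78 and 121 UMIs in CO hydrogel, hydrogel and untreated neutrophils.

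Some less abundant members were more uneven than Isg15 and Ifit3. Rsad2, whose product viperin makes an antiviral nucleotide, had 39.2 CPM with the CO hydrogel, 243 CPM with the hydrogel and 13.1 CPM untreated, with a log2 ratio of -2.63 (-3.28 to -2.05) for the CO hydrogel over the hydrogel and 4.21 for the hydrogel over the untreated wound. When the members were kept among the clustering genes, the first of these ratios turned to 0.37. In that setting 495 cells led by Rsad2 and Isg15, nearest to neutrophils by their markers, formed a cluster of their own. It was left unnamed for its few UMIs and so lay outside the neutrophil class. Cmpk2, the neighbour of Rsad2 that feeds the same nucleotide pool, had 3.27, 35.0 and 3.15 CPM in the CO hydrogel, hydrogel and untreated libraries. Ifit2 had 222 CPM with the CO hydrogel, 716 CPM with the hydrogel and 138 CPM untreated. Psmb9, an immunoproteasome subunit, had 294 CPM with the CO hydrogel, 513 CPM with the hydrogel and 161 CPM untreated, and its partner Psmb8 had 4.90, 9.24 and 2.21 CPM. Irf7, which drives the later wave of type I interferon, had 40.9 CPM with the CO hydrogel, 71.6 CPM with the hydrogel and 39.6 CPM untreated, so it was much more even than Irf1. Bst2, or tetherin, ran the other way at 47.4 CPM with the CO hydrogel, 20.4 CPM with the hydrogel and 11.6 CPM untreated (log2 1.22, 0.57 to 1.82, for the CO hydrogel over the hydrogel).

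As a list in neutrophils, 15 of 38 members were at least 2-fold lower under the CO hydrogel than under the hydrogel, against 8.41% of all genes, and 1 was at least 2-fold higher, against 8.1%. The count lower was 6 with the members among the clustering genes, 8 with each library clustered by itself and 23 under TMM factors, a scaling set by the bulk of genes. Both of these clusterings left an unnamed cluster led by Rsad2 and Isg15 outside the class, of 495 cells in the former and 410 hydrogel cells in the latter. The members' median log2 ratio was -0.84, against 0.17 over all genes. By role the GTPases summed to 114 CPM with the CO hydrogel, 1302 CPM with the hydrogel and 75.7 CPM untreated, the transcription factors to 262, 1301 and 167 CPM, and the antiviral effectors to 8338, 13786 and 6494 CPM. Against the untreated wound, 28 of 39 members were at least 2-fold higher under the hydrogel, against 41.3% of all genes, with a median of 1.76 against 0.85. With the CO hydrogel, 10 of 37 were at least 2-fold higher than untreated, against 47.1% of all genes, with a median of 0.64 against 0.93, so the members lay below the bulk of genes there. Relative to the median of all genes, 17 members were at least 2-fold higher under the hydrogel than untreated and 3 with the CO hydrogel than untreated. Normalised with TMM factors, the CO hydrogel median over the untreated wound was -0.50 in place of 0.64.

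Which neutrophils were present also differed. The cluster led by Ifit1bl, Pglyrp1, an antibacterial protein gene, and Csf3r, the receptor gene of a neutrophil growth factor, held 438 of 458 neutrophils with the CO hydrogel, 2520 of 2805 with the hydrogel and 1145 of 5679 untreated, and the remaining untreated cells were mostly in clusters led by Retnlg and Il23a. Ifit1bl, a member, led this cluster, called the Csf3r cluster below, although it was not used to make it. Within that cluster Irf1 had 126 CPM with the CO hydrogel, 1205 CPM with the hydrogel and 95.9 CPM untreated, and Gbp2 had 107, 1162 and 171 CPM. Isg15 there had 2113 CPM with the CO hydrogel, 4405 CPM with the hydrogel and 3366 CPM untreated, and Ifit3 had 3044, 5445 and 3841 CPM. So inside the Csf3r cluster the members' median ratio stayed at -0.90 for the CO hydrogel over the hydrogel and was 0.78 for the hydrogel over the untreated wound, but it was -0.18 for the CO hydrogel over the untreated wound, with 2 members at least 2-fold higher in place of 10. Summed markers of other cells also moved in the whole class, with 8 fibroblast markers at 4553 CPM in CO hydrogel neutrophils, 2023 CPM in hydrogel neutrophils and 1489 CPM in untreated neutrophils, and 11 macrophage markers at 10461, 9060 and 5978 CPM. Their part in the result was not tested.

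In macrophages and monocytes, the second large myeloid class, the members did not share a direction. Irf1, the GTPases and the immunoproteasome subunits were highest with the hydrogel. Irf1 had 111 CPM with the CO hydrogel, 346 CPM with the hydrogel and 89.5 CPM untreated, a log2 ratio of -1.65 (-1.72 to -1.57) for the CO hydrogel over the hydrogel. Gbp2 had 119 CPM with the CO hydrogel, 372 CPM with the hydrogel and 58.5 CPM untreated, a ratio of -1.65 (-1.72 to -1.58). Psmb9 had 118, 366 and 94.8 CPM, Irgm 13.1, 59.0 and 8.24 CPM, and Gbp5 46.7, 105 and 27.5 CPM in the CO hydrogel, hydrogel and untreated libraries. Samhd1, an effector that depletes the nucleotides that retroviruses need, had 21.5 CPM with the CO hydrogel, 55.4 CPM with the hydrogel and 20.2 CPM untreated. For all 6 genes except Gbp2 the CO hydrogel lay within 2-fold of the untreated wound, and Gbp2 lay 1.02 log2 units above it. Stat2, at 36.1, 54.9 and 30.3 CPM, and the RNA sensor Dhx58, at 20.8, 27.9 and 11.6 CPM, were also highest with the hydrogel. The order thus did not strictly follow the roles.

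The oligoadenylate synthetase genes went the other way in the class as a whole. Oasl, whose human form binds the RNA sensor RIG-I and strengthens its signal, had 509 CPM with the CO hydrogel, 183 CPM with the hydrogel and 187 CPM untreated, a ratio of 1.48 (1.43 to 1.53) for the CO hydrogel over the hydrogel. Oas1a, whose product activates an RNA-cutting enzyme, had 23.7 CPM with the CO hydrogel, 9.09 CPM with the hydrogel and 8.24 CPM untreated, and Oas2 had 3.69, 1.28 and 1.11 CPM. Mx2, a dynamin-like antiviral GTPase gene, had 40.6 CPM with the CO hydrogel, 20.4 CPM with the hydrogel and 7.07 CPM untreated, and its relative Mx1 had 120, 73.2 and 31.9 CPM. Ifit3 had 212 CPM with the CO hydrogel, 120 CPM with the hydrogel and 80.7 CPM untreated, and Ifit2 had 165, 102 and 28.5 CPM. These effectors were highest with the CO hydrogel and, apart from Oasl, lowest untreated. In the same class 8 fibroblast markers summed to 1807 CPM with the CO hydrogel, 695 CPM with the hydrogel and 668 CPM untreated, and 11 markers of conventional dendritic cells to 1335, 225 and 455 CPM, and their part in the result was not tested.

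Isg15 and Rsad2 were nearly level between the 2 gels. Isg15 had 111 CPM with the CO hydrogel, 105 CPM with the hydrogel and 63.5 CPM untreated, and Rsad2 had 8.26, 8.67 and 1.41 CPM. Irf7 had 19.2 CPM with the CO hydrogel, 11.0 CPM with the hydrogel and 8.24 CPM untreated, and Psmb8 had 3.49, 6.19 and 1.85 CPM. Ifi27 was the most abundant member of the class, with 785 CPM with the CO hydrogel, 548 CPM with the hydrogel and 517 CPM untreated. Zbp1, a sensor of Z-form nucleic acid, had 9.13, 8.79 and 2.21 CPM, and Xaf1 had 4.30, 5.83 and 1.29 CPM, so both were low untreated. Ifit1bl had another order, with 2.48 CPM with the CO hydrogel, 7.06 CPM with the hydrogel and 15.3 CPM untreated, and 10 neutrophil markers summed in these macrophages ran the same way, at 605, 975 and 2732 CPM. Whether neutrophil RNA was part of that result was not tested.

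As a list in macrophages and monocytes, 7 of 38 members were at least 2-fold lower under the CO hydrogel than under the hydrogel, against 3.42% of all genes, and 3 were at least 2-fold higher, against 6.84%. The median ratio was -0.10, against 0.01 over all genes, with members spread on both sides. The GTPases summed to 179 CPM with the CO hydrogel, 536 CPM with the hydrogel and 94.2 CPM untreated, the immunoproteasome subunits to 121, 372 and 96.6 CPM, and the antiviral effectors to 2305, 1492 and 1141 CPM. Ifi27 and Oasl made up much of the effector sum, and Oasl turned direction inside the clusters, as given below. Against the untreated wound, 18 of 38 members were at least 2-fold higher under the CO hydrogel (10.7% of all genes, medians 0.90 and 0.20) and 20 of 38 with the hydrogel (7.44% of all genes, medians 1.18 and 0.17).

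**Figure D2:**
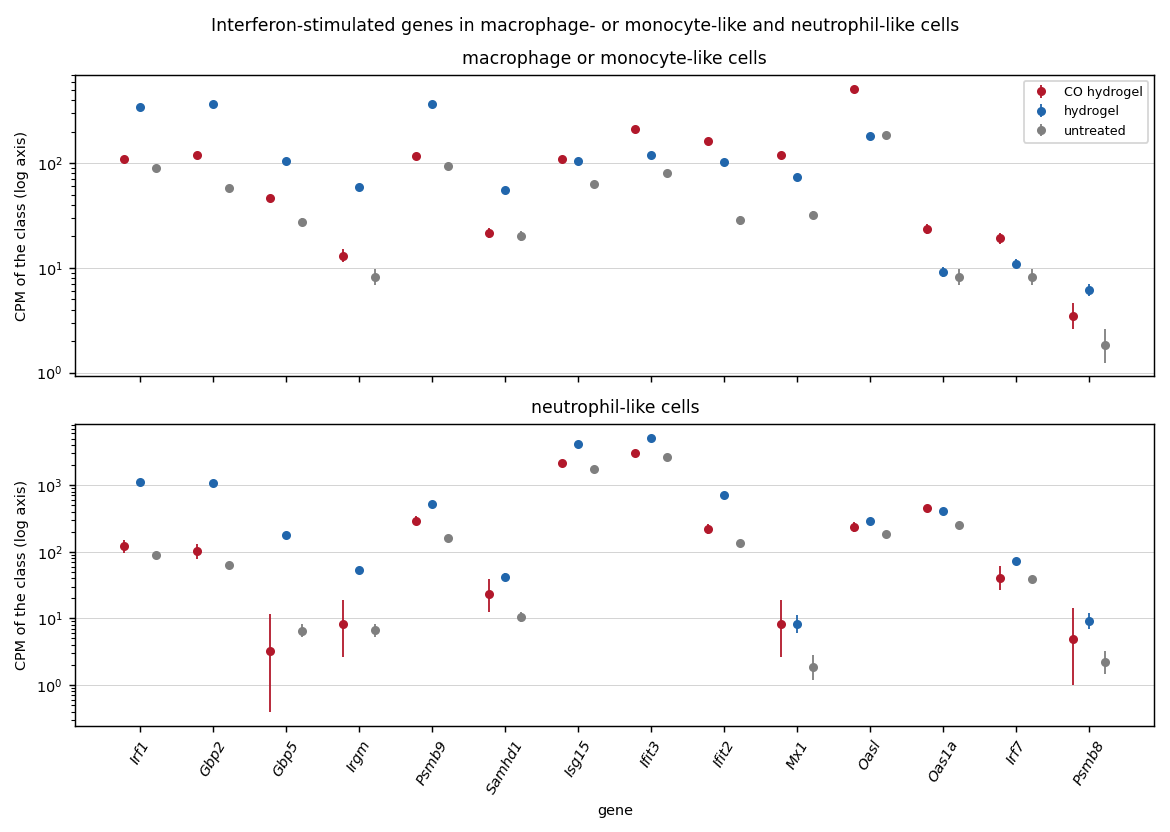
Level (CPM, log axis) of 14 members in macrophage or monocyte-like cells and in neutrophil-like cells, with 1 point per library and bars for the 95% counting interval. Irf1, Gbp2, Gbp5 and Irgm have the hydrogel point above the other points in both panels, while Oasl is highest with the CO hydrogel in macrophages (509 CPM) and not in neutrophils (237 CPM).

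The macrophage class was made of unlike clusters, and their shares changed. A cluster led by Cxcl11 held 22 CO hydrogel cells (0.813% of the class), 1057 hydrogel cells (25.1%) and 39 untreated cells (1.96%). A cluster led by Cd163 and Lyve1, genes of resident scavenging macrophages, held 1211 CO hydrogel cells (44.7%), 322 hydrogel cells (7.65%) and 288 untreated cells (14.5%). Cxcl11 is itself an interferon gamma target, and Gbp2 led the first cluster without having been used to form it, so the size of that cluster is not independent of the members.

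Inside the clusters the direction of Oasl turned. In the Cd163 cluster Oasl had 1092 CPM with the CO hydrogel, 1584 CPM with the hydrogel and 675 CPM untreated, and in the cluster led by Fcnb, a monocyte gene, it had 185, 224 and 91.6 CPM. In the Spp1 cluster it had 39.6 CPM with the CO hydrogel, 51.0 CPM with the hydrogel and 60.2 CPM untreated, and in the Trem2 cluster 37.1, 94.3 and 127 CPM. In the Cxcl11 cluster, from 22 CO hydrogel cells, it had 61.5, 82.4 and 241 CPM. The level was therefore lower under the CO hydrogel than under the hydrogel in each of the 5 clusters, while in the class as a whole it was higher. Oas1a held its direction in 4 of the 5 clusters, with 10.3 against 3.22 CPM in the Spp1 cluster for the CO hydrogel against the hydrogel, and was level in the Cd163 cluster at 35.7 against 36.2 CPM.

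The direction of Irf1 held. It had 116 CPM with the CO hydrogel, 262 CPM with the hydrogel and 88.5 CPM untreated in the Spp1 cluster, 101, 316 and 146 CPM in the Trem2 cluster, and 79.2, 225 and 36.8 CPM in the Fcnb cluster. In the Cd163 cluster it was flat, at 124 CPM with the CO hydrogel, 130 CPM with the hydrogel and 104 CPM untreated. Gbp2 had 162 CPM with the CO hydrogel, 394 CPM with the hydrogel and 67.3 CPM untreated in the Fcnb cluster, and 184, 242 and 115 CPM in the Cd163 cluster. With the Cxcl11 cluster left out of the class, the ratio of the CO hydrogel over the hydrogel was -1.30 for Irf1, -1.08 for Psmb9 and -1.60 for Irgm, but -0.52 for Gbp2, in place of -1.65. The members' summed level was lower under the CO hydrogel than under the hydrogel in all 5 clusters, 4772 against 5806 CPM in the Cd163 cluster and 1575 against 2232 CPM in the Trem2 cluster, although the class totals differed by only -0.06 on the log2 scale.

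**Figure D3:**
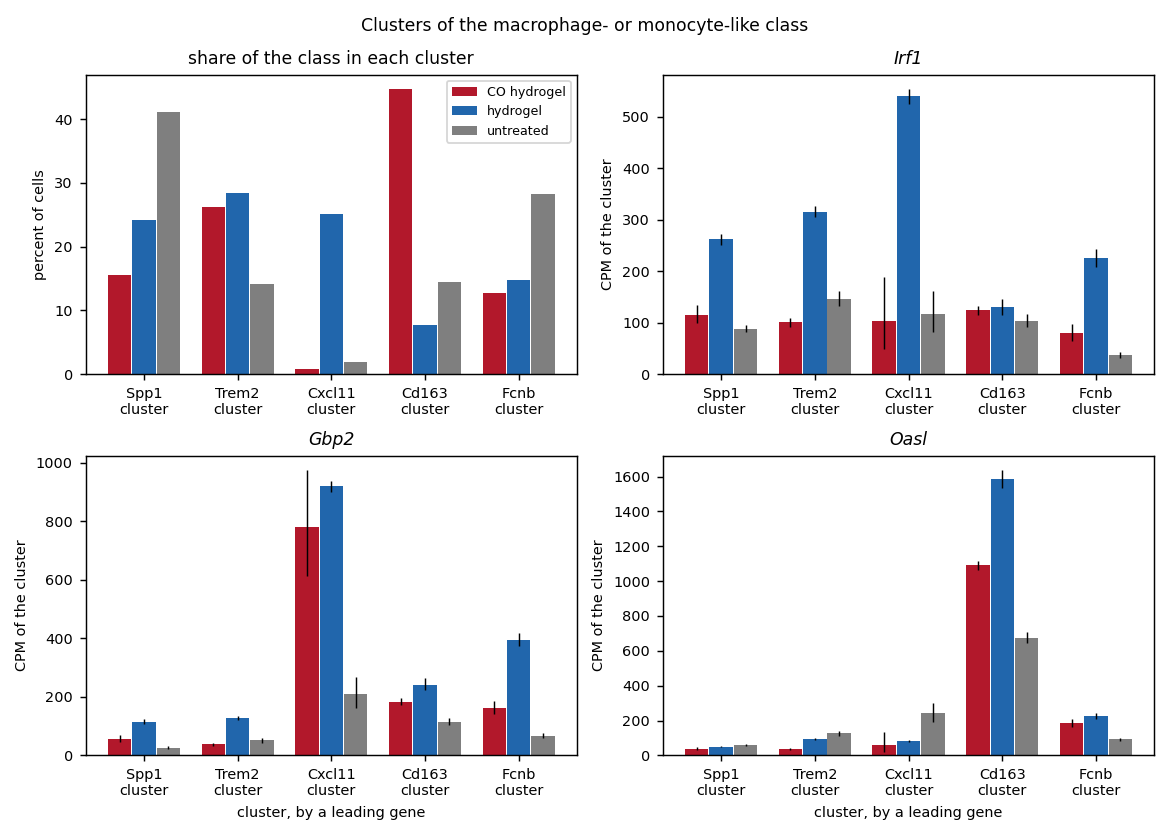
Share of the class (percent) and level (CPM) of Irf1, Gbp2 and Oasl in each macrophage or monocyte-like cluster, named by a leading gene, for the CO hydrogel, hydrogel and untreated libraries, with lines for the 95% counting interval. Oasl is concentrated in the Cd163 cluster (1092, 1584 and 675 CPM) and is below the hydrogel value there with the CO hydrogel, while Irf1 is highest with the hydrogel in the Spp1, Trem2, Cxcl11 and Fcnb clusters.

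Endothelial cells showed a different pattern, in which the gels were alike and the untreated wound was low. Mx1 had 702 UMIs with the CO hydrogel, 490 with the hydrogel and 8 untreated, or 68.8, 72.3 and 2.07 CPM, a log2 ratio of 5.05 (4.07 to 6.27) for the CO hydrogel over the untreated wound. Mx2 had 88.5 CPM with the CO hydrogel, 76.7 CPM with the hydrogel and 3.62 CPM untreated, a ratio of 4.61. Isg15 had 285 CPM with the CO hydrogel, 255 CPM with the hydrogel and 42.2 CPM untreated, a ratio of 2.76 (2.53 to 2.99). Between the gels these 3 genes differed by -0.07, 0.21 and 0.16 on the log2 scale.

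The same order was seen across roles. Ifit3 had 170 CPM with the CO hydrogel, 174 CPM with the hydrogel and 42.2 CPM untreated, and Irf7 had 19.6, 16.8 and 2.59 CPM. Usp18, the protease that removes ISG15 and damps type I receptor signalling, had 23.1 CPM with the CO hydrogel, 21.8 CPM with the hydrogel and 2.33 CPM untreated, and Cmpk2 had 15.3, 12.7 and 1.29 CPM. Xaf1 had 59, 54 and 1 UMIs, so its ratio over the untreated wound, 4.48 with the CO hydrogel, has a counting interval of 1.95 to 9.81. Gbp2 had 148 CPM with the CO hydrogel, 191 CPM with the hydrogel and 40.9 CPM untreated, and the 3 RNA sensors summed to 41.5, 42.6 and 10.4 CPM. Herc6, the main ISG15 ligase of mice, had 18.0 CPM with the CO hydrogel, 30.5 CPM with the hydrogel and 5.44 CPM untreated. Ifit2 had the widest gap in favour of the CO hydrogel over the hydrogel, 213 against 123 CPM (log2 0.79, 0.68 to 0.91), with 24.9 CPM untreated.

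The 2 most abundant endothelial members varied little. Ifi27 had 2620 CPM with the CO hydrogel, 2501 CPM with the hydrogel and 2172 CPM untreated, and Bst2 had 589, 520 and 468 CPM. Others were lower untreated, with Irf1 at 306 CPM with the CO hydrogel, 330 CPM with the hydrogel and 176 CPM untreated, while Parp14, an ADP-ribosyltransferase, had 173, 195 and 79.2 CPM. Psmb9 had 141 CPM with the CO hydrogel, 173 CPM with the hydrogel and 87.8 CPM untreated, Psmb8 had 2.84, 5.01 and 2.33 CPM, and Trim25, the ligase that activates RIG-I, had 42.3, 45.0 and 34.4 CPM. In contrast to myeloid cells, Irf1 was thus nearly level between the 2 gels.

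Of 36 endothelial members measured, 26 were at least 2-fold higher under the CO hydrogel than untreated, against 10.8% of all genes, and 26 with the hydrogel than untreated, against 5.61%. The medians were 1.61 and 1.55, against 0.08 and 0.10 over all genes. Between the gels 1 of 36, Ifit1bl, was past 2-fold, against 8.11% of all genes in either direction, and the median was -0.05. Endothelial cells numbered 1414 under the CO hydrogel, 859 under the hydrogel and 347 untreated. Of the endothelial clusters, the 1 led by Rbp7, a capillary gene, had medians of 1.81 for the CO hydrogel and 1.72 for the hydrogel over the untreated wound, and Mx1 there had 75.6 CPM with the CO hydrogel, 77.4 CPM with the hydrogel and 0.86 CPM untreated. The cluster led by Fam167b, of cells with few UMIs, had medians of 0.95 and 0.88. Ifit1bl again went with neutrophil markers, which summed to 99.2 CPM in CO hydrogel endothelial cells, 319 CPM in hydrogel cells and 366 CPM in untreated cells, and their part in it was not tested.

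**Figure D4:**
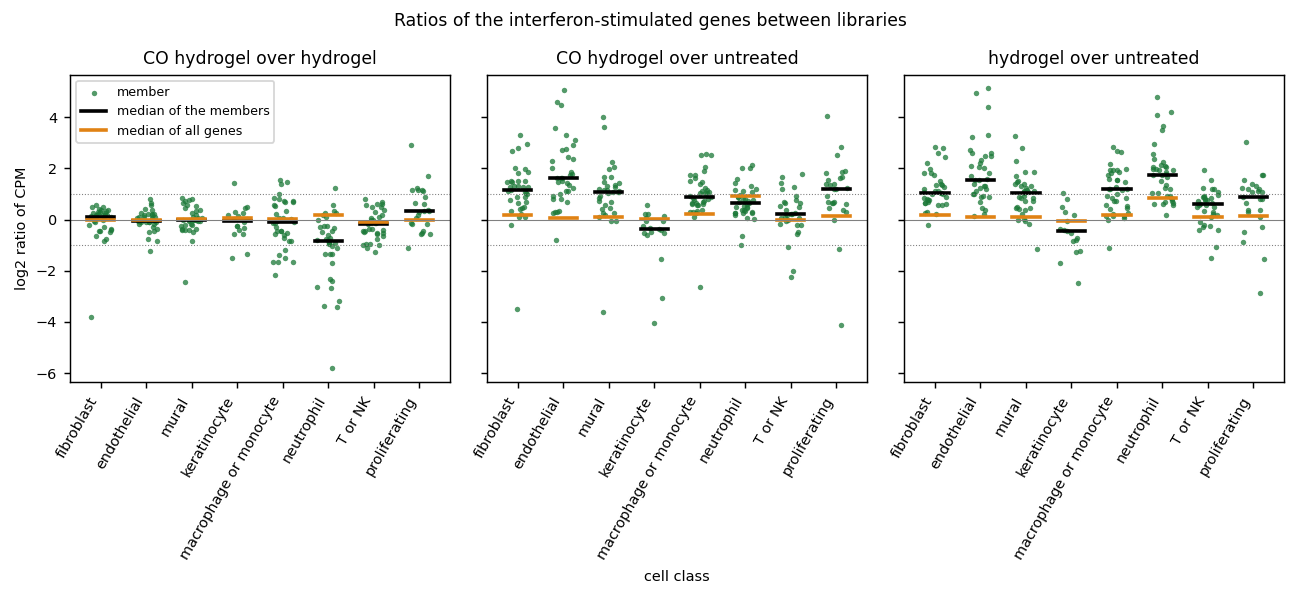
Log2 ratio of each measured member (points) for the 3 pairs of libraries in each class, with the members' median and the median over all genes marked. Endothelial, mural and fibroblast-like members lie mostly above 0 against the untreated wound and around 0 between the gels, whereas neutrophil-like members lie mostly below 0 for the CO hydrogel over the hydrogel (median -0.84).

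Fibroblasts, the largest class with the CO hydrogel (4987 cells, against 1741 with the hydrogel and 1323 untreated), had the endothelial pattern at lower levels. Isg15 had 146 CPM with the CO hydrogel, 138 CPM with the hydrogel and 52.9 CPM untreated, and Irf1 had 265, 244 and 96.1 CPM. Mx2 had 22.4 CPM with the CO hydrogel, 15.8 CPM with the hydrogel and 2.24 CPM untreated, a ratio of 3.32 (2.92 to 3.76) for the CO hydrogel over the untreated wound. Rtp4, named as a transport protein of membrane receptors, had 19.5, 13.1 and 2.82 CPM. Each of these 4 genes was lowest untreated and differed by at most 0.57 log2 units between the gels.

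Gbp2 had 27.3 CPM in CO hydrogel fibroblasts, 33.4 CPM in hydrogel fibroblasts and 9.50 CPM in untreated fibroblasts, and Psmb8 had 1.39, 2.48 and 1.21 CPM. Irf7 varied little, with 7.55 CPM with the CO hydrogel, 8.73 CPM with the hydrogel and 5.55 CPM untreated, and so did Bst2, with 126, 112 and 94.1 CPM, and Ifi27, with 1071, 865 and 1001 CPM. Ifit3 had 29.2 CPM with the CO hydrogel, 39.4 CPM with the hydrogel and 34.0 CPM untreated. Ifit1bl had 0.661, 9.16 and 7.39 CPM. The 10 neutrophil markers summed to 143 CPM in CO hydrogel fibroblasts, 347 CPM in hydrogel fibroblasts and 584 CPM in untreated fibroblasts, beside 88988, 70180 and 64349 CPM in neutrophils, and their part in the Ifit3 and Ifit1bl values was not tested.

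In fibroblasts 23 of 37 members were at least 2-fold higher under the CO hydrogel than untreated, against 9.24% of all genes, and 21 of 37 with the hydrogel than untreated, against 8.43%. The medians were 1.17 and 1.05, against 0.16 over all genes in each. Between the gels 1 of 37, Ifit1bl, was past 2-fold, against 6.9% of all genes in either direction. The clusters differed, though. In the cluster led by Cxcl13, the largest with the CO hydrogel, the members' median over the untreated wound was 1.65 under the CO hydrogel and 1.51 under the hydrogel, and Isg15 had 180 CPM with the CO hydrogel, 198 CPM with the hydrogel and 40.9 CPM untreated. In the cluster led by Tnn, the medians were 0.19 under the CO hydrogel and 0.92 under the hydrogel, and Isg15 had 11.5, 41.6 and 18.4 CPM. Between the gels the median was -0.69 in the Tnn cluster, where 27 of 32 members were lower under the CO hydrogel, and 0.05 in the Cxcl13 cluster. The summed member level was not lower in either, with log2 ratios of 0.04 (0.00 to 0.07) and 0.14 (0.11 to 0.16). These sums include Ifi27, which held 49.7% of the members' UMIs in CO hydrogel fibroblasts and 45.9% in hydrogel fibroblasts. Over the whole class the summed ratio between the gels was 0.19 with Ifi27 and 0.09 without it. In the cluster led by Cilp the median was -0.41 and the summed ratio -0.21 (-0.26 to -0.17).

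Mural cells had the same order for the Mx genes. Mx1 had 37.1 CPM with the CO hydrogel, 22.1 CPM with the hydrogel and 2.30 CPM untreated, a ratio of 4.01 (3.24 to 4.90) for the CO hydrogel over the untreated wound, and Mx2 had 56.8, 31.6 and 4.61 CPM. Ifit2 had 48.8 CPM with the CO hydrogel, 29.3 CPM with the hydrogel and 11.7 CPM untreated, and Isg15 had 174, 167 and 77.1 CPM. Gbp2 had 41.6, 50.3 and 20.2 CPM, and Irf7 had 6.21, 6.27 and 2.96 CPM. Irf1 did not follow, with 406 CPM with the CO hydrogel, 415 CPM with the hydrogel and 417 CPM untreated, nor did Ifit3, with 40.4, 42.5 and 41.9 CPM, or Psmb8, with 1.77, 1.79 and 1.32 CPM. In all, 20 of 34 members were at least 2-fold higher under the CO hydrogel than untreated, against 5.95% of all genes, and 19 of 36 with the hydrogel than untreated, against 5.16%. Between the gels 1 of 36, Ifit1bl, was past 2-fold, against 4.21% of all genes. In mural cells 8 fibroblast markers summed to 21238 CPM with the CO hydrogel, 16405 CPM with the hydrogel and 8984 CPM untreated, in the order of the Mx genes. The 10 neutrophil markers summed to 70.3, 265 and 722 CPM, in the order of Ifit1bl. Ifit3 had 3023, 5139 and 2670 CPM in neutrophils. The part of both marker sets in these results, the mural Ifit3 values among them, was not tested.

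T or NK cells were few, at 417 with the CO hydrogel, 513 with the hydrogel and 106 untreated, and had a pattern of their own. Gbp5 had 91.1 CPM with the CO hydrogel, 216 CPM with the hydrogel and 190 CPM untreated, a ratio of -1.25 (-1.56 to -0.94) for the CO hydrogel over the hydrogel. Gbp2 had 56.1 CPM with the CO hydrogel, 122 CPM with the hydrogel and 64.5 CPM untreated, a ratio of -1.12 (-1.53 to -0.73). Psmb9 had 280, 444 and 287 CPM, and Irf1 had 109, 160 and 69.6 CPM in the CO hydrogel, hydrogel and untreated libraries. These 4 genes were highest with the hydrogel. Markers of proliferating cells, 9 genes, ran the same way, at 372 CPM with the CO hydrogel, 1064 CPM with the hydrogel and 708 CPM untreated, and their part in it was not tested. Between the gels the members' median was -0.29 in the cluster led by Il17a and 0.02 in the cluster led by Ccl5 and Nkg7.

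Mx1 in T or NK cells had 151 CPM with the CO hydrogel, 133 CPM with the hydrogel and 56.0 CPM untreated, while Isg15 was lowest with the CO hydrogel, at 99.9 CPM, against 137 CPM with the hydrogel and 148 CPM untreated. Ifit3 had 21.9 CPM with the CO hydrogel, 42.5 CPM with the hydrogel and 88.2 CPM untreated, alongside neutrophil marker sums of 471, 476 and 1754 CPM, whose part in it was not tested. Irf7 had 9.64, 6.45 and 8.48 CPM and Psmb8 had 17.5, 19.3 and 5.09 CPM. Between the gels 4 of 35 members were past 2-fold, all lower with the CO hydrogel, against 9.75% of all genes in either direction. Over the untreated wound 5 of 30 were at least 2-fold higher under the CO hydrogel, against 6.89% of all genes, and 6 of 34 with the hydrogel, against 9.2%. For all 3 pairs the share of members lay nearer to that of all genes than it did in endothelial cells.

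Keratinocytes, with 250 cells with the CO hydrogel, 110 with the hydrogel and 100 untreated, gave at least 20 UMIs for 17 or 18 of the members. Irf1 had 53.4 CPM with the CO hydrogel, 71.6 CPM with the hydrogel and 50.9 CPM untreated, and Isg15 had 17.1, 6.44 and 15.4 CPM. Gbp2 had 4.93, 14.2 and 6.89 CPM, while Irf7 and Psmb8 had at most 3 UMIs in any library. Ifit3 had 5.22 CPM with the CO hydrogel, 13.3 CPM with the hydrogel and 43.5 CPM untreated, and Ifit1bl had 2, 4 and 18 UMIs. The neutrophil markers summed to 12182, 26162 and 4887 CPM in keratinocytes. Of these 10 markers, 1, 2 and 0 had no UMI there in the CO hydrogel, hydrogel and untreated libraries. How much each marker gave to the sum was not read, and the part of neutrophil RNA in the Ifit3 and Ifit1bl values was not tested. The members' median ratios over the untreated wound were -0.36 under the CO hydrogel and -0.43 under the hydrogel, against 0.03 and -0.06 over all genes. These medians did not share the direction of those in the stromal and vascular classes. They rest on few members of the class's own, as 16 of 18 and 16 of 17 were over 5 times higher elsewhere, which left 2 and 1. A mixed class of proliferating cells, of 124, 70 and 139 cells, had Isg15 at 110 CPM with the CO hydrogel, 34.1 CPM with the hydrogel and 19.3 CPM untreated.

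The rest of the pathway was read from a list of 55 genes, 52 of them in the files, that held ligands, receptors, signal carriers, inhibitors and further targets. Of the ligands, Ifng, interferon gamma itself, had 7 UMIs in CO hydrogel T or NK cells, 386 in hydrogel T or NK cells and none in untreated T or NK cells, where 0 of 106 cells with a UMI, taken as at most 3 counts, allows up to 2.83% of cells with a UMI and does not limit the share that expresses the gene. It was seen in 6 of 417 CO hydrogel cells (1.44%, exact binomial interval 0.530 to 3.11) and in 40 of 513 hydrogel cells (7.80%, 5.63 to 10.5). In fibroblasts, which should lack it, it was seen in 0 of 4987 CO hydrogel cells, 4 of 1741 hydrogel cells (0.230%) and 0 of 1323 untreated cells, at median depths of 9183, 13482 and 16329 UMIs beside 2405, 3917 and 4592 UMIs in T or NK cells. Up to 84 of the UMIs came from a single cell, and of the hydrogel cells with Ifng 29 lay in the cluster led by Ccl5 and Nkg7, genes of cytotoxic lymphocytes.

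Ifnb1, interferon beta, was seen in macrophages, with 117 UMIs with the CO hydrogel, 45 with the hydrogel and 20 untreated, or 7.86, 1.26 and 1.23 CPM. It was found in 65 of 2707 CO hydrogel cells (2.40%), 34 of 4207 hydrogel cells (0.808%) and 9 of 1987 untreated cells (0.453%), at median depths of 4914, 7509 and 7416 UMIs, against 1 of 4987, 0 of 1741 and 1 of 1323 fibroblasts. The Cd163 cluster held all 117 of the CO hydrogel UMIs, 31 of the hydrogel UMIs and 19 of the untreated UMIs. Within it 65 of 1211 CO hydrogel cells (5.37%), 24 of 322 hydrogel cells (7.45%) and 8 of 288 untreated cells (2.78%) had Ifnb1, so per cell of that cluster the CO hydrogel was not above the hydrogel. Ifna1, Ifna2, Ifna4, Ifne, Ifnl1 and Ifnl3 had no UMIs.

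The receptors stayed within 2-fold in macrophages. Ifngr1 had 255 CPM in CO hydrogel macrophages, 281 CPM in hydrogel macrophages and 358 CPM in untreated macrophages, and in neutrophils it had 472, 456 and 417 CPM. Ifnar1 had 119, 144 and 109 CPM in macrophages and 89.9, 86.4 and 44.7 CPM in neutrophils, where it was lower untreated, and Ifngr2 had 89.8, 116 and 139 CPM and Ifnar2 24.4, 35.3 and 24.5 CPM in macrophages. Socs1, the feedback inhibitor, had 21.3 CPM with the CO hydrogel, 167 CPM with the hydrogel and 32.6 CPM untreated in neutrophils.

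The chemokines that draw T cells through Cxcr3 told the gels apart. Cxcl9, the most gamma-dependent of them, had 10.3 CPM in CO hydrogel macrophages, 118 CPM in hydrogel macrophages and 2.34 CPM in untreated macrophages, and Cxcl11 had 37.7, 411 and 27.4 CPM. Cxcl10, which type I interferon also induces, had 805 CPM with the CO hydrogel, 430 CPM with the hydrogel and 191 CPM untreated there, but in neutrophils it had 39.2, 771 and 14.9 CPM. As with Oasl, Cxcl10 in the Cd163 cluster alone was not higher with the CO hydrogel, at 1743 CPM, against 1878 CPM with the hydrogel and 806 CPM untreated. In endothelial cells Cxcl9 had 269 CPM with the CO hydrogel, 457 CPM with the hydrogel and 111 CPM untreated, and in mural cells 24.0, 90.0 and 23.8 CPM. Tap1, the peptide pump of antigen presentation, had 34.2 CPM with the CO hydrogel, 142 CPM with the hydrogel and 26.8 CPM untreated in macrophages and 62.1, 354 and 45.4 CPM in neutrophils. Of the pathway genes measured, 7 of 40 in macrophages and 13 of 34 in neutrophils were at least 2-fold lower under the CO hydrogel than under the hydrogel, and 1 was at least 2-fold higher in each, beside 1 of 37 lower and 0 higher in endothelial cells. Over all genes 3.42% were lower and 6.84% higher in macrophages, 8.41% and 8.1% in neutrophils, and 8.11% past 2-fold in either direction in endothelial cells.

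The spread over cells was read by thinning each cell to 1000 UMIs and counting those with at least 10 member UMIs. In neutrophils 37.0% of 368 CO hydrogel cells (32.0 to 42.1), 56.8% of 2689 hydrogel cells (54.9 to 58.7) and 24.3% of 5469 untreated cells (23.2 to 25.5) reached that level, with 90, 116 and 210 shallower cells left out. Without thinning, at the same share of a cell's UMIs, the values were 33.8%, 53.9% and 22.1%. In endothelial cells the shares were 10.3% of 1133 CO hydrogel cells (8.62 to 12.2), 9.24% of 682 hydrogel cells (7.17 to 11.7) and 2.62% of 267 untreated cells (1.06 to 5.33). Macrophages had 6.28% with the CO hydrogel, 6.47% with the hydrogel and 0.954% untreated, and fibroblasts had 0.621%, 0.480% and 0.08%. Mural cells had 2.87% under the CO hydrogel and 2.34% under the hydrogel, and 0 of 549 untreated cells, with an exact binomial upper bound of 0.670%. Member-rich cells were thus frequent in neutrophils of every library and rare in untreated stromal, vascular and macrophage classes.

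**Figure D5:**
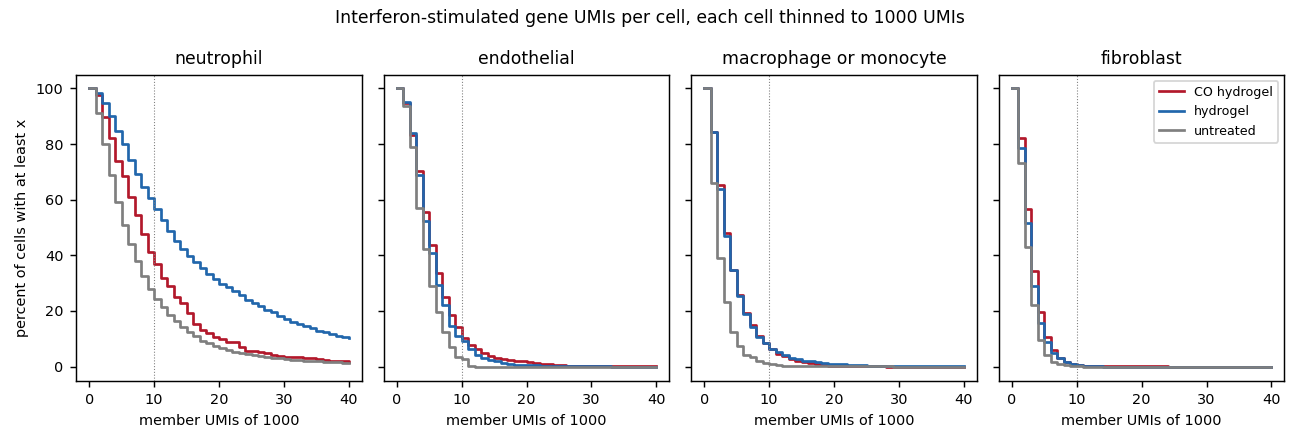
Percent of cells (vertical axis) with at least a given number of member UMIs (horizontal axis) after thinning each cell to 1000 UMIs, for the CO hydrogel, hydrogel and untreated libraries in 4 classes, with a dotted line at 10 UMIs. The hydrogel curve lies above the others in neutrophils (56.8% at 10), and the CO hydrogel and hydrogel curves lie together above the untreated curve in endothelial cells (10.3%, 9.24% and 2.62%).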

How the data were processed

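Per the labels' protocols, wound tissue was digested with an epidermis dissociation kit, red cells were lysed, and about 8000 cells per sample were loaded on a 10x Genomics 3′ v3.1 droplet kit. The deposited files hold UMI counts per gene and cell barcode, not normalized, made by the authors. Of tools, the rn6 build, Seurat 4.2.0, DESeq 1.38.0 and Cell Ranger 7.0.0 are listed, per the submitters' processing notes, with no role given. The library totals were 109718517 UMIs for the CO hydrogel, 109148721 for the hydrogel and 78233883 for the untreated wound, over 15376, 15442 and 12883 barcodes.

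Cells with at least 500 UMIs and 300 genes and at most 20% mitochondrial UMIs were kept (14293, 13535 and 11633). Scrublet scores were used to remove the top-scoring share set by 0.8% per 1000 barcodes, which was 11.43%, 10.83% and 9.31%, because Scrublet's own calls were 550, 399 and 0. Cells were clustered with scanpy 1.11.5 and leidenalg 0.10.2 (2000 variable genes, 30 components, 20 neighbours, resolution 1), with members and pathway genes left out of the variable genes. A class name needed at least 3 detected markers, and classes of fewer than 50 cells in any library were left aside. The UMIs of all cells of a class in a library were added up. Levels have exact Poisson intervals and log2 ratios exact conditional binomial intervals at 95%, checked on simulated counts. TMM factors came from edgeR 4.0.16 in R 4.3.3, and the rest ran in Python 3.11.15 with numpy 2.4.6, scipy 1.17.1 and pandas 2.3.3.

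The members, the pathway list and the marker lists were chosen with earlier results of these data known. Members are named with values where they are among the 5 highest in a class or among the 5 highest or lowest ratios of a pair with at least 100 UMIs. Isg15, Irf7, Ifit3, Irf1, Gbp2 and Psmb8 are given in every class compared. The alternatives were other cell filters, doublets kept, other clusterings, TMM factors, means of per-cell values, other UMI minimums and folds, and, chosen after seeing the data, leaving out shared barcodes, Ifi27, the Cxcl11 cluster or all but 1 neutrophil cluster. Results of some genes are not reported here.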

Additional observations from a re-analysis of the deposited data

Results flagged for a closer look

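Several ratios had opposite signs in different classes. None of these differences was tested, since each group is 1 library. Ifit3 for the CO hydrogel over the untreated wound was 2.01 in endothelial cells and 1.39 in macrophages, but -3.06 in keratinocytes and -1.16 in proliferating cells. For the hydrogel over the untreated wound it was 2.05 in endothelial cells, but -1.71 in keratinocytes, -1.06 in T or NK cells (0.01 with doublets kept) and -1.55 in proliferating cells. Gbp5 for the CO hydrogel over the untreated wound was 1.61 in endothelial cells and -1.06 in T or NK cells. Ifit1bl for the hydrogel over the untreated wound was 1.02 in neutrophils, but -1.15 in mural cells and -1.11 in macrophages. The 10 neutrophil markers summed to 48.4 CPM with the CO hydrogel, 152 CPM with the hydrogel and 437 CPM untreated in proliferating cells. Their sum was also highest untreated in T or NK cells, mural cells and macrophages, though not in keratinocytes. The part of neutrophil RNA in the Ifit3 and Ifit1bl ratios was not tested.

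Cells outside the classes compared also carried the members. A group led by RT1-Db1, an antigen-presenting class II gene, had a summed member level of 3035 CPM with the CO hydrogel and 3442 CPM with the hydrogel, above the 1966 CPM of the untreated wound. Osteoclast-like cells led by Acp5, a phosphatase gene, had 596 CPM with the CO hydrogel, 1533 CPM with the hydrogel and, from 8 cells, 417 CPM untreated. A Krt15-led cluster of 163 CO hydrogel cells had 2652 CPM.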

How the results depend on the processing

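Each count below is of members past 2-fold, and gels means the CO hydrogel over the hydrogel. No paired analysis was possible because each group is 1 library, and for the same reason no library could be left out. Of 206 called single-gene ratios, 169 kept 2-fold under TMM factors, 189 with each library clustered by itself, 184 as means of per-cell CPM, 183 with members among the clustering genes and 206 without shared barcodes.

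A cluster led by Rsad2 fell outside the neutrophil class with members among the clustering genes and with each library clustered by itself. The neutrophil counts depended most on scaling and clustering. Lower between gels, they went to 23 (higher, 0) under TMM, 6 with members among the clustering genes, 8 with each library clustered by itself and 24 at 1.5-fold, and higher to 0 without members over 5 times higher elsewhere. Higher under the CO hydrogel than untreated, they went to 0 under TMM, 2 in the largest cluster, 3 relative to all genes and 20 at 1.5-fold. Higher under the hydrogel than untreated, they went to 18, 13 and 17 under TMM, in that cluster and relative to all genes. Neutrophil Rsad2 reversed between gels to 0.37 with members among the clustering genes, and over untreated with the CO hydrogel to -0.13 in the largest cluster. Samhd1 reversed to -0.03 under TMM and -0.09 in that cluster, and Dtx3l to -0.06 under TMM.

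Without members over 5 times higher elsewhere, the counts over untreated with the CO hydrogel and the hydrogel were 9 and 7 of 14 left in fibroblasts, 12 of 20 and 11 of 19 in endothelial cells and 8 of 15 and 6 of 12 in mural cells, those lower between gels were 0 in all 3 classes, and 2 in T or NK cells. With means of per-cell CPM, 2 fibroblast members were lower between gels, and 3 endothelial members were lower and 1 higher. Endothelial Isg20 then reversed to -0.74 (CO hydrogel) and -1.09 (hydrogel) over untreated, and Irgm to -0.19 and -0.47.

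At 1.5-fold, 4 fibroblast members were lower between gels, 3 endothelial lower and 2 higher, 2 mural lower and 5 higher, 11 macrophage lower and 10 higher, and 8 T or NK lower and 4 higher. Over untreated there were 29 in macrophages and 10 in T or NK cells with the CO hydrogel, and 17 in T or NK cells with the hydrogel. With doublets kept, 2 endothelial, 6 mural and 7 T or NK members were lower between gels, 10 T or NK members were higher under the hydrogel than untreated, and T or NK Ifit3 reversed there to 0.01. At resolution 2, 0 endothelial members were lower between gels and 13 T or NK members were higher under the hydrogel than untreated. At 100 UMIs, 0 mural members were lower between gels and 13 higher under the CO hydrogel than untreated, and T or NK cells had 2 lower between gels and 1 and 2 higher than untreated with the CO hydrogel and the hydrogel. With the stricter cell filter T or NK cells had 2 lower between gels and 3 higher under the CO hydrogel than untreated, and TMM and the all-gene median each gave 2 lower. In macrophages 6 were higher between gels without the Cxcl11 cluster, and 11 were higher under the CO hydrogel than untreated with members among the clustering genes.

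With 5 in place of 10 UMIs, the member-rich shares in the CO hydrogel, hydrogel and untreated libraries were 43.8%, 40.9% and 28.8% in endothelial cells, 25.8%, 25.4% and 7.48% in macrophages and 68.5%, 80.0% and 51.1% in neutrophils. With 20 they were 1.59%, 0.440% and 0%, 0.275%, 0.914% and 0.106%, and 9.78%, 29.8% and 6.64%. Thinned to 2000 UMIs, endothelial cells had 6.00% with the hydrogel and 0% untreated, macrophages 5.26% under the CO hydrogel and 5.04% under the hydrogel, and neutrophils 19.0% with the CO hydrogel and 22.1% untreated. Other draws reached 12.6% in CO hydrogel and 0.749% in untreated endothelial cells. The causes were not tested. Fewer than 20 UMIs left up to 22 members unread in keratinocytes and up to 9 in T or NK cells.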

Other observations

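Classes with fewer than 50 cells in the untreated library were left out of the comparisons, and their values are given here as a description. Osteoclast-like cells, large cells led by Acp5 and Mmp9, numbered 70 with the CO hydrogel, 55 with the hydrogel and 8 untreated. Irf1 there had 32 UMIs under the CO hydrogel and 274 under the hydrogel, or 19.1 and 203 CPM, and Gbp2 had 6 and 56 UMIs. The median over 25 members was -2.24 on the log2 scale for the CO hydrogel over the hydrogel, against -0.01 over all genes. Plasmacytoid dendritic-like cells, a type known for making type I interferon, numbered 204 with the CO hydrogel, 179 with the hydrogel and 28 untreated. They had no UMI of Ifna1, Ifna2 or Ifna4, the only alpha interferon genes read. Their Irf7 level, from 37, 33 and 5 UMIs, was 55.3 CPM with the CO hydrogel, 44.8 CPM with the hydrogel and 35.9 CPM untreated. Their Irf1 level was 173 CPM with the CO hydrogel and 177 CPM with the hydrogel. Isg15 and Ifit3 were highest untreated, at 625 and 381 CPM, against 49.3 and 34.4 CPM with the CO hydrogel and 31.2 CPM each with the hydrogel. Ifit1bl, far higher in neutrophils than in any other class compared, was also highest untreated, at 86.2 CPM from 12 UMIs. It had 4.48 CPM with the CO hydrogel and 17.7 CPM with the hydrogel. Mx1 ran the other way, with 35, 10 and 0 UMIs in the CO hydrogel, hydrogel and untreated libraries. The part of neutrophil RNA in these values was not tested. The summed members had 2904 CPM with the CO hydrogel, 2359 CPM with the hydrogel and, from 28 cells, 3656 CPM untreated.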
